A study of Mus musculus with 4 samples.

Results

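The plasminogen activators, the receptor of urokinase and 4 serpins were followed in mammary tumour cells of mice that have or lack Pak1, a serine-threonine kinase that acts downstream of Rac and Cdc42. The set held 7 genes, Plau, Plaur, Plat, Serpine2, Serpinb2, Serpinb5 and Serpinh1, and their probes were found by gene name. Each had a single probe among the 39429 non-control probes of the array, and that probe stood for the gene among 21910 gene names tested. All 7 probes were well above background on all 4 arrays and so belonged to the 27229 probes tested.

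The 4 samples were cell lines that had been grown out of MMTV-Neu mouse tumours. In that model Neu (Her2) is expressed from the mouse mammary tumour virus promoter, active mainly in mammary epithelium. Of these, 2 were Pak1-/- and 2 were Pak1+/+, and the series design describes a pair of different tumours per genotype. All cells carried the oncogene, were kept in low calcium medium with horse serum, and were starved of serum for 3 h and given EGF for 15 min before RNA was taken. No sample without EGF was analysed here. Values are log2 intensities after background correction and quantile normalization, and differences are the mean of the Pak1-/- cells minus that of the Pak1+/+ cells. The groups were compared with the moderated test of limma, and a gene was called at an adjusted p under 0.05 (Benjamini-Hochberg over all probes tested).

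Plasminogen is an inactive protein that urokinase (Plau) and tissue-type plasminogen activator (Plat) cut into plasmin, a protease that dissolves fibrin and attacks the extracellular matrix. The urokinase receptor (Plaur) holds urokinase at the cell surface, and serpins such as Serpine2 and Serpinb2 trap the activators in inactive complexes. Serpinb5 (maspin) and Serpinh1 belong to the same fold family but are not inhibitors of proteases: maspin is a protein of normal mammary epithelium, above all of myoepithelial cells, and Serpinh1 is a chaperone of procollagen in the endoplasmic reticulum. Tumours commonly use the plasminogen system during invasion.

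The probes are shown because each gene rests on 1 of them. Every probe is 60 bases long and its coordinates are those of the files (mm9). The first 30 bases are given as the files hold them, except for Serpine2. The Serpine2 probe is printed whole, since its 60 bases are spread over 2618 bases of the genome and therefore cross a splice junction. No gene annotation of mm9 was used here, so the exonic part that each of the others covers is not stated.
Plau, chr14:21662242-21662301, + strand: gtgtatttctgtatctaactgcaagtctag
Plat, chr8:23892531-23892590, + strand: aaggttacgaattacctagactggattcac
Plaur, chr7:25260569-25260628, + strand: ccctcgtgttgtcttctttggacctcagtt
Serpine2, chr1:79793476-79796093, - strand: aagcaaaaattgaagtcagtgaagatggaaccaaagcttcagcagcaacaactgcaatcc
Serpinb2, chr1:109422046-109422105, + strand: catcataagtaagcatgcttacttacacac
Serpinb5, chr1:108778585-108778644, + strand: ccaagtctcagggaacttgtctgtagtcgc
Serpinh1, chr7:106493971-106494030, - strand: ggggaggggaaatatgagcctttgttgctt

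Before the genes were compared, the arrays and labels were examined. The median spot intensity was 322 to 331 on the 4 arrays, over a median local background of 39.0 to 42.0, and 62.2% to 70.4% of probes were well above background. The Pak1 probe that stood for the gene was not lower in the Pak1-/- cells (12.23 ± 0.03 against 12.04 ± 0.002, SD, n = 2 each, limma adjusted p = 0.070). Whether that probe lies in the deleted part of the gene is not given in the sources used here, and a probe outside it would check nothing. Throughout, Pak1-/- and Pak1+/+ cells are therefore the samples labelled so, and every direction rests on the labels. All arrays lay on 1 slide, Pak1-/- cells at the first positions and Pak1+/+ cells at the last, and an effect of genotype and one of position cannot be told apart. Of 8 luminal epithelial markers, 8 were well above background on both Pak1-/- arrays and 6 on both Pak1+/+ arrays, with Krt8 and Krt18 at 18.09 or more on every array. The p-values measure the spread between these 4 samples. In whole cultures fewer cells of a type and less RNA per cell cannot be told apart.

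In limma 5 of the 7 genes were higher in the Pak1-/- cells (Plat, Serpinh1, Serpinb5, Plau and Serpine2) and 2 were lower (Serpinb2 and Plaur). Differences were common across the array: 51.9% of the probes tested were called, 23.3% higher and 28.6% lower, so that a call on its own says little about a gene. The values of the groups did not overlap for any of the 7 genes, as was the case for 78.2% of probes with 4 values. The genes differed far more in size of change than in call. The difference of Plat was exceeded by 1.30% of the probes tested, that of Serpinh1 by 4.70%, that of Serpinb5 by 8.62% and that of Serpinb2 by 13.5%. Those of Plau, Serpine2 and Plaur were exceeded by 31.5%, 37.5% and 52.9% of probes, which places them among ordinary differences between these cells. The plot of the intensity of each gene by array shows this contrast.

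**Figure D1:**
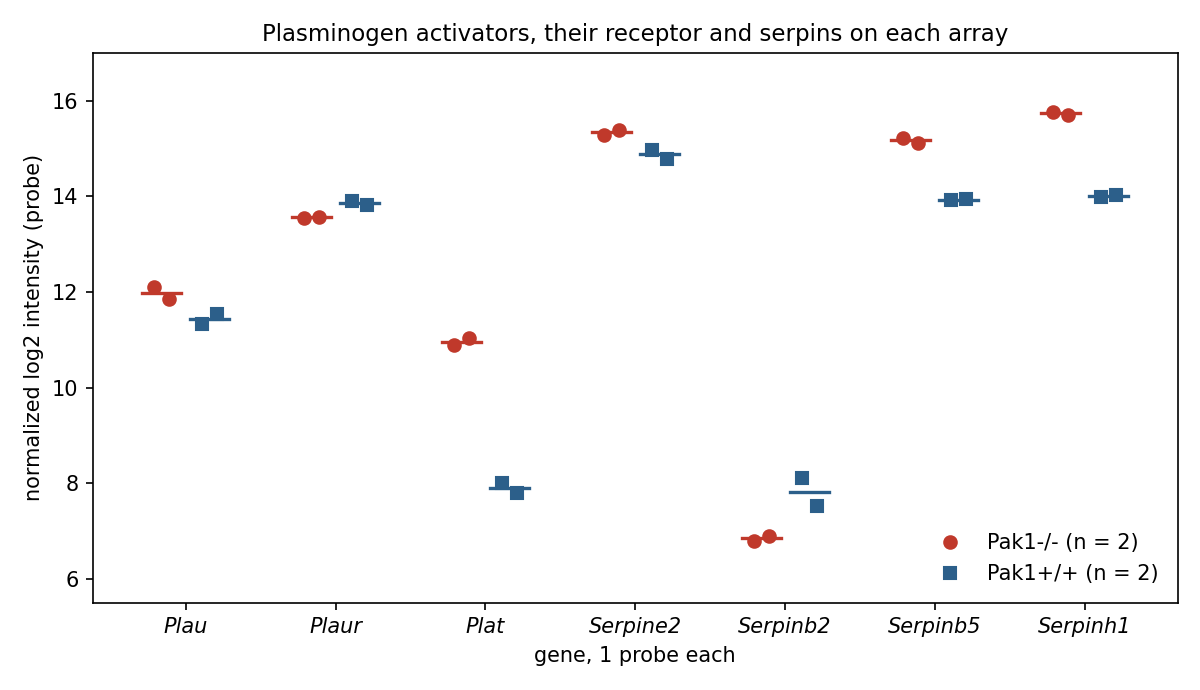
Normalized log2 intensity (vertical axis) of the 1 probe of each of the 7 genes on each array, with circles for the 2 Pak1-/- samples, squares for the 2 Pak1+/+ samples and lines at the group means. Plat stands near 11 in the Pak1-/- cells and near 8 in the Pak1+/+ cells, whereas the groups lie close together for Plau, Plaur and Serpine2; heights of different genes are not comparable, since probes differ in brightness.

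Of the activators, Plat showed the largest change of the set. Its log2 intensity was 10.89 and 11.03 in the Pak1-/- cells and 8.01 and 7.80 in the Pak1+/+ cells. Both Pak1-/- samples thus stood well apart from both Pak1+/+ samples, and replicates differed by only 0.14 and 0.21. The log2 difference was 3.05 (SE 0.11, limma adjusted p = 0.00015), a fold change of 8.31 (95% interval 6.84 to 10.1). Before any scaling between arrays, the background-subtracted intensity was 1926 and 2372 in the Pak1-/- cells and 209 and 161 in the Pak1+/+ cells, a ratio of 11.6. The offset added during background correction lowers the fold change of a dim probe, and with no offset the log2 difference was 3.36 (limma adjusted p = 0.00051). Plat was called under all 13 alternatives that could change its value or its test, at 2.95 to 3.52.

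Plau, which codes for urokinase, changed much less. It read 12.09 and 11.85 in the Pak1-/- cells and 11.33 and 11.53 in the Pak1+/+ cells. The lowest Pak1-/- value was above the highest Pak1+/+ value by 0.32, and replicates lay up to 0.24 apart. The log2 difference was 0.54 (SE 0.12, limma adjusted p = 0.020), or 1.46-fold (95% interval 1.16 to 1.82). The call depended on single arrays. It was lost without Pak1-/- replicate 1 (0.42, limma adjusted p = 0.076) and without Pak1+/+ replicate 1 (0.44, limma adjusted p = 0.077), over a range of 0.011 to 0.077 for the 13 alternatives.

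The urokinase receptor went the other way. Plaur read 13.54 and 13.58 in the Pak1-/- cells and 13.91 and 13.81 in the Pak1+/+ cells. Both Pak1-/- values were the lower, by a gap of 0.24. The log2 difference was -0.30 (SE 0.07, limma adjusted p = 0.026), or 1.23-fold lower (95% interval 1.08 to 1.41). This was the least stable call of the set. It was lost whichever array was left out, with values of -0.28 and -0.32 without Pak1-/- replicates 1 and 2 and of -0.25 and -0.35 without Pak1+/+ replicates 1 and 2 (limma adjusted p = 0.066 to 0.14). It was also lost under cyclic loess normalization (-0.21, limma adjusted p = 0.066, range 0.020 to 0.14 over 13 alternatives), although the sign stayed negative throughout.

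Among the serpins that inhibit plasminogen activators, Serpine2 (protease nexin-1, which inhibits thrombin, urokinase and tissue-type activator) was a little higher in the Pak1-/- cells. Its values were 15.29 and 15.38 against 14.97 and 14.78. The groups were separated by 0.32, against 0.19 between the Pak1+/+ replicates. Its log2 difference was 0.46 (SE 0.10, limma adjusted p = 0.016), or 1.37-fold (95% interval 1.15 to 1.64). It was called under 9 of 13 alternatives, over an adjusted p of 0.0071 to 0.074. The call was lost without Pak1-/- replicate 1 (0.51), without Pak1-/- replicate 2 (0.41), without Pak1+/+ replicate 2 (0.36) and with the processed intensities scaled to the 75th percentile (0.38, limma adjusted p = 0.0502).

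Serpinb2 (plasminogen activator inhibitor type 2, largely an intracellular protein) was dim in both groups and lower in the Pak1-/- cells. It read 6.80 and 6.89 there and 8.11 and 7.52 in the Pak1+/+ cells. The Pak1-/- values lay close to the lowest level that counted as well above background on those arrays (6.55 and 6.69), and the Pak1+/+ replicates differed by 0.59, the widest spread among the 7 genes. The log2 difference was -0.97 (SE 0.21, limma adjusted p = 0.017), or 1.96-fold lower (95% interval 1.34 to 2.87). The size of this change depended on the background correction. It was -1.43 with no offset and -1.76 with the processed intensities, which were 35.2 and 43.5 in the Pak1-/- cells and 188 and 90.6 in the Pak1+/+ cells. The call was lost without Pak1-/- replicate 1 (-0.93, limma adjusted p = 0.095) and without Pak1-/- replicate 2 (-1.02, limma adjusted p = 0.076), over a range of 0.0031 to 0.095. Without Pak1+/+ replicate 1 the difference was -0.68.

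The serpins that do not inhibit proteases differed by more than Serpine2. Serpinh1 (HSP47), the procollagen chaperone, read 15.76 and 15.71 in the Pak1-/- cells and 13.99 and 14.04 in the Pak1+/+ cells. Replicates differed by at most 0.056, so the groups were separated by many times their spread. The log2 difference was 1.72 (SE 0.07, limma adjusted p = 0.00020), or 3.30-fold (95% interval 2.90 to 3.75). Serpinb5 (maspin) read 15.22 and 15.13 in the Pak1-/- cells and 13.92 and 13.94 in the Pak1+/+ cells. Its groups were likewise far apart, with a gap of 1.18. For maspin the log2 difference was 1.24 (SE 0.07, limma adjusted p = 0.00050), or 2.36-fold (95% interval 2.07 to 2.70). Both calls held under all 13 alternatives, Serpinh1 at 1.64 to 1.82 and Serpinb5 at 1.19 to 1.36.

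**Figure D2:**
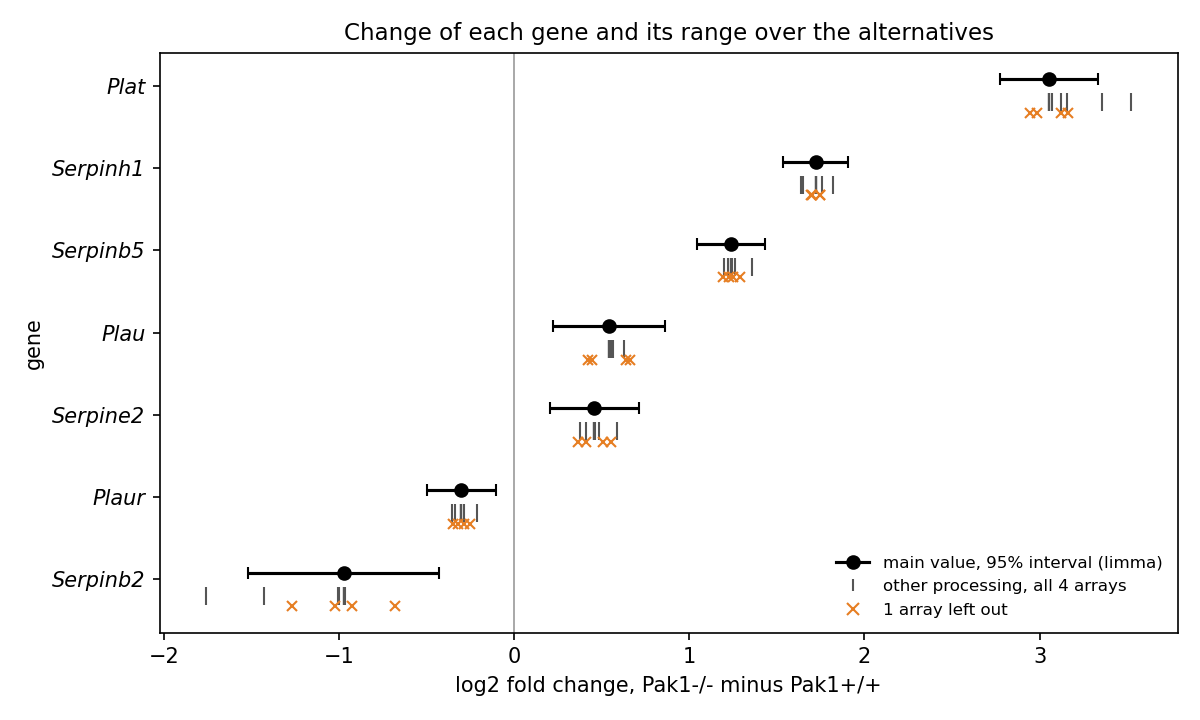
Log2 fold change of each gene, Pak1-/- minus Pak1+/+ (horizontal axis), with black points and bars for the main value and its 95% interval from limma, ticks for other processing of all 4 arrays and crosses for fits with 1 array left out. The estimates of Plat, Serpinh1 and Serpinb5 stay at or above 1.19 in every fit, while that of Serpinb2 spreads from -1.76 to -0.68. The bars of Serpinb5 (from 1.05) and Serpinb2 (to -0.43) reach beyond these values.

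Several of these genes are also made by cells other than luminal tumour cells, so marker levels were set beside them, as sums of linear normalized intensity over each list. The 8 luminal markers summed to 1161246 and 1179217 in the Pak1-/- cells and to 977575 and 959138 in the Pak1+/+ cells, with 3 called higher (Cdh1 by 1.19, Krt8 by 0.57 and Krt18 by 0.27) and 0 lower. The 8 basal (myoepithelial) markers summed to 101143 and 91170 in the Pak1-/- cells and to 19797 and 19327 in the Pak1+/+ cells. Of these, 6 were called higher, among them Krt17 (4.92), Oxtr (3.84) and Krt14 (2.83), whereas no array had Myh11 or Lgr5 well above background. The basal sums were also higher in the Pak1-/- cells without Krt14, the brightest of them (38919 and 30455 against 11298 and 10554). Serpinb5, a gene typical of myoepithelial cells, moved in the same direction, and the part of the basal genes in its change was not tested.

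The 10 fibroblast markers summed to 3689 and 2477 in the Pak1-/- cells against 1993 and 1383 in the Pak1+/+ cells. Of these, 2 were called higher, Col1a1 by 1.12 and Postn, which was well above background only in the Pak1-/- cells. Without Postn the sums of the groups overlapped (1862 and 1670 against 1914 and 1308). Pdgfra (-0.16) and Col1a2 (0.03) were well above background on all 4 arrays and not called, and Fap on 3 arrays, while Col3a1, Dcn, Lum and Pdgfrb were at background (not well above it) on every array. The 10 macrophage and leukocyte markers summed to 120367 and 105037 in the Pak1-/- cells against 214756 and 198618, with 8 of them well above background on all 4 arrays and Lyz2 and Tyrobp on none. Cd14, lower by 1.70, made up most of that sum in the Pak1+/+ cells but less than Itgam in Pak1-/- replicate 1. Without Cd14 the order turned (74169 and 51096 against 47367 and 42550), and nearly all of the rest was Itgam. Aif1 (0.80) was called higher, Adgre1 (-1.05), Ptprc (-0.45) and Fcer1g (-0.37) were called lower together with Cd14, and Itgam (0.49) was not called. The 8 endothelial markers, of which 0 were called, summed to 10795 and 10439 against 9568 and 11301, nearly all of it Kdr (0.04). Pecam1 and Esam were also well above background on all 4 arrays, and Tek, Tie1 and Emcn on none. The part of these lists in the changes of Plat, Plaur, Serpinb2 and Serpinh1 was not tested.

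The other genes of the plasmin system were then examined with a list of 30 genes for the formation, inhibition and clearance of plasmin and for its cell surface sites. Of these, 24 were tested, 13 were called higher and 2 lower in limma, and the median log2 difference was 0.38. Over all 21910 genes tested, 51.0% were called, 22.8% higher and 28.2% lower, with a median of -0.06. Plg, the gene of plasminogen itself, did not rise clearly above background on a single array (6.44 to 7.13), which is usual for a protein made mainly in liver. The same held for Vtn, which codes for vitronectin, and for Serpina5. The count of higher genes was 6 without Pak1+/+ replicate 2.

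The called genes of the list that were higher at least 2-fold included Itgb5 (2.24, an integrin subunit that binds vitronectin), F3 (1.95, tissue factor, which starts coagulation) and A2m (1.35, a broad inhibitor of proteases, well above background on 1 of 2 Pak1+/+ arrays). No called gene of the list was lower by that much. Lrp1, the receptor that clears complexes of activator and serpin, was higher by 0.81, and Vldlr, a related receptor, was lower by 0.75, although a dimmer probe of Vldlr showed no such change (-0.0076, limma adjusted p = 0.95). Of the inhibitors of the matriptase and hepatocyte growth factor activator proteases, Spint2 was higher by 0.77 and Spint1 lower by 0.58. Anxa2 and S100a10, which bind plasminogen and tissue-type activator at the cell surface, gave 0.15 and 0.13 and were not called.

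**Figure D3:**
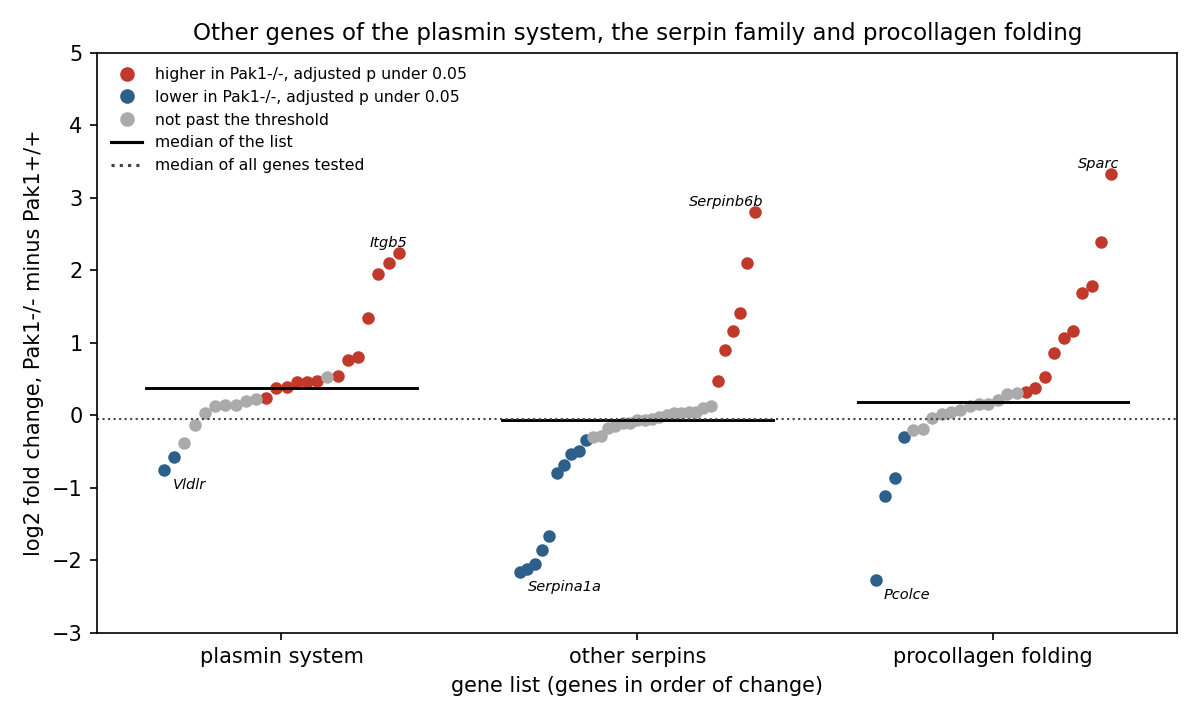
Log2 fold change, Pak1-/- minus Pak1+/+ (vertical axis), of the tested genes of 3 lists, each gene a point in order of its change; red points were called higher, blue points called lower and grey points not called in limma, solid lines mark the list medians and the dotted line the median of all genes tested. The plasmin system median (0.38) lies above the median of all genes, that of other serpins (-0.07) close to it. Some serpins belong to both of these lists.

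The other serpins were called about as often as genes in general. The list held 56 serpin genes outside the 7, some of them also in the plasmin system list or the chromosome 1 cluster below. Of these 56, 55 had a probe and 33 were tested. In limma 6 were higher and 10 lower (48.5% called, against 51.0% of all genes tested), with a median of -0.07. The called genes that were higher at least 2-fold included Serpinb6b (2.80), Serpinb9c and Serpinb9 (1.17, an inhibitor of granzyme B). Serpinb9c was not well above background in the Pak1+/+ cells and was at least 2.39-fold higher in the Pak1-/- cells. The lower ones were Serpina1a (-2.17, and -0.69 at a dimmer probe), Serpinf1 (-2.13 and -1.19 at its 2 probes, the gene of pigment epithelium-derived factor), Serpina1c (-2.06), Serpinb11 (-1.67) and Serpina1d. Serpina1d was not well above background in the Pak1-/- cells and was at least 3.61-fold lower there. The Serpina1 genes are near-identical copies whose transcripts can bind the probes of each other, as can those of the Serpinb6 and Serpinb9 groups, so their single values are uncertain.

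Serpinb2 and Serpinb5 lie in the same cluster of Serpinb genes on chromosome 1 and moved in opposite directions. Of 14 other genes of the cluster and its flanks, 7 were tested. In limma Bcl2 (0.48) and Vps4b (0.34) were higher, Serpinb8 (-0.34) and Serpinb11 (-1.67) were lower, and Kdsr, Serpinb3c and Phlpp1 were not called. This share (57.1% called) was near the 51.0% of all genes and says little about the cluster. The other 7, Serpinb3a, Serpinb3b, Serpinb3d, Serpinb7, Serpinb10, Serpinb12 and Serpinb13, stayed at background on every array.

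The sequences before the start sites of these neighbours are given because the genes differ in direction. RefSeq promoters (GRCm38.p6) were held for 5 of the 7 genes and the 250 bases before the start were searched on both strands for AP-1 (TGANTCA), Sp1 (GGGCGG), CRE (TGACGTCA) and TATA box (TATAAA) letters. These starts were not always the start of the RefSeq gene. The 2 of Serpinb2 lay 10531 and 10618 bases downstream of it, and that of Plaur 1546 bases. AP-1 letters were present before the starts of Serpinb2, Serpinb5 and Plaur and in 6.75% of all 32851 promoters. Sp1 letters were present for Serpinb5, Serpinh1, Serpine2 and Plaur and in 32.7% of all promoters. TATA box letters were present only for Serpinb2 among the 5 genes, 29 bases before the start of the first of its 2 promoters, and in 12.4% of all promoters. CRE letters were found for none of the 5 and in 1.55% of all promoters. Capitals mark the matches below, which are descriptions of letters and not measured sites.
Serpinb2, chr1:107511173-107511422, + strand: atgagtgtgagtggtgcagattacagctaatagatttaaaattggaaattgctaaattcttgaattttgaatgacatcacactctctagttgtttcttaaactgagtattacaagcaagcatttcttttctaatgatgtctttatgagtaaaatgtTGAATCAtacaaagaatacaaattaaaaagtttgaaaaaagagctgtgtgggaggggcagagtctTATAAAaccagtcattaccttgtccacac
Serpinb5, chr1:106860925-106861174, + strand: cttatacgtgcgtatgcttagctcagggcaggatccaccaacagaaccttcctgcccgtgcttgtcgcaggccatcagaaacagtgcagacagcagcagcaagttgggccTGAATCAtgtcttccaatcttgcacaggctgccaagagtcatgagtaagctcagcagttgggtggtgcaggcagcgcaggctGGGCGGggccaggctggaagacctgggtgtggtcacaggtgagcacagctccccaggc

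Since Serpinh1 acts on procollagen, 26 genes of procollagen folding, modification and secretion were set beside it. All 26 were tested, with 10 higher and 4 lower in limma (53.8% called, close to the 51.0% of all genes) and a median log2 difference of 0.19. The called genes that were higher at least 2-fold were Sparc (3.32, a collagen-binding glycoprotein), P3h2 (2.40, a prolyl hydroxylase), Plod1 (1.79, a lysyl hydroxylase), Fkbp14 (1.68, a prolyl isomerase), Bmp1 (1.16, which removes the procollagen C-propeptide) and P4ha2 (1.07, a prolyl hydroxylase subunit). Dimmer probes gave 1.58 for Plod1, 1.24 for Fkbp14 and 0.85 for Bmp1. Of the general folding genes of the endoplasmic reticulum in the list, Hspa5 (0.86), Pdia3 (0.53) and Calr (0.32) were higher by less, and Canx (0.30) and P4hb (-0.04) were not called. The genes lower at least 2-fold were Pcolce (-2.27, an enhancer of Bmp1) and P3h3 (-1.11). P3h1 is uncertain, since its brightest probe was lower by 0.30 and a dimmer one was higher by 2.00 (limma adjusted p = 0.022 and 0.00019).

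The gene with the most similar profile among 19057 others is given for 6 of the 7 genes, as the smallest Euclidean distance over the 4 arrays after the mean of each gene was subtracted. The nearest to Plat was Ifitm3, an interferon-induced membrane protein (distance 0.16, difference 3.08), and only 5 genes lay within 0.2 of Plat. The nearest to Serpinh1 was Fkbp14 at its brighter probe (0.047), 1 of the procollagen list, with 107 genes within 0.2. The nearest to Serpinb5 was Arap1 (0.012), to Serpine2 Caap1 (0.017) and to Serpinb2 Ins1 (0.072). Plaur was nearest to a transcript with no gene symbol (0.0067) and had 3487 genes within 0.2. With 4 arrays in 2 groups, such likeness is mostly a similar difference between the groups.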

How the data were processed

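RNA of 4 samples was hybridized to 1-colour (Cy3) Agilent mouse arrays. Spot intensity and local background were read by Feature Extraction 9.5.3.1, per the file headers, with no scaling across arrays. A log2 table deposited by the authors was normexp corrected and quantile normalized and held values in 24008 of 39485 rows (lowest r with the values computed here 0.9998, across probes).

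Following the study's methods, normexp was applied to the intensities (limma 3.58.1 under R 4.3.3), and the offset of 50 was set here. Non-control spots were quantile normalized on the log2 scale, outlier spots set aside and spots averaged per probe. A probe that 2 or more of the 4 arrays had well above background was tested across all probes (lmFit and eBayes, two-sided, Benjamini-Hochberg, adjusted p under 0.05), which was checked on simulated data. The number of arrays limits precision. An "at least" fold sets the brighter group against the higher of the dim probe's value and the lowest value well above background.

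Names came from RefSeq accessions (GRCm38.p6), and 26055 probes matched. A gene took its brightest probe. Members and lists were chosen with earlier results of these data known. Text beyond the 7 genes names Pak1, Plg, list genes changed at least 2-fold, nearest profiles, and further list genes and markers picked after their values were seen; some genes that this rule names are not reported here. The sign and size of members and lists were recomputed under alternatives given in the closing section. The human cell line of the study was not analysed here.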

Additional observations from a re-analysis of the deposited data

How the results depend on the processing

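All 7 genes kept their direction under every alternative run, and Plat, Serpinh1 and Serpinb5 also kept their call. Averaging the probes of a gene could not change them, since each has 1 probe. The 14132 probes called fell in number to 8878 with the stricter threshold of 0.01, to 3413 when a 2-fold change was also required, and to between 10307 and 12164 in leave-one-out fits, which assume that a lone sample varies as the other genotype does. With either stricter rule, 3 of the 7 genes were higher and 0 lower, and leave-one-out fits gave 3 to 4 higher and 0 to 1 lower. Plaur lost its call under cyclic loess (-0.21), which left 1 gene lower, and Serpine2 with processed intensities at the 75th percentile (0.38). Leave-one-out values ran from 0.42 to 0.66 for Plau, -0.35 to -0.25 for Plaur, 0.36 to 0.56 for Serpine2 and -1.27 to -0.68 for Serpinb2. Samples are not paired by their replicate numbers (r = -0.028 across probes between the replicate differences of the groups). With the replicate block, 13211 probes passed and Plaur lost its call (-0.30, limma adjusted p = 0.052), which left 1 gene lower. The plasmin system median was 0.34 with processed intensities, 0.32 with normexp values at the 75th percentile and 0.47 under cyclic loess, over 24 genes. Over other sets of tested genes it was 0.24 without a filter (30 genes) and 0.41 from the authors' table (23 genes). Leave-one-out medians of that list were 0.30 to 0.41, and 6 to 11 of its genes were higher. The other serpins' median, over 33 genes, was -0.13 with processed intensities, -0.024 under cyclic loess and -0.14 to -0.041 in leave-one-out fits. With the filter on all 4 arrays it was -0.15, over 25 genes. The procollagen median was 0.29 under cyclic loess. The cause of these shifts was not tested. Signal over background limits Serpinb2 above all.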
